A study of Mus musculus with 2 samples.

Results

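In a pool of innate lymphoid cells sorted from mouse skin, 103 cells held little RNA and carried an unusually large share of it as Malat1. They belong to cell set 2, one of 2 sets into which the cell names divide the table by their suffix. They were chosen by measured values of 3 kinds. Each cell had fewer than 2000 UMIs (molecular tags, each counting 1 RNA molecule once), at least 5% of them from Malat1, and at most 10% from genes encoded in the mitochondrial genome. They are called the Malat1-rich cells here. They made up 2.94% (2.40 to 3.55%) of the 3508 cells of set 2 within the mitochondrial limit, in a table of 5246 cells. The main comparison was with the 3259 cells of set 2 that had 2000 or more UMIs and met the same mitochondrial limit, called the deep cells. A further 146 cells under 2000 UMIs had less than 5% Malat1 and are called the other shallow cells.

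Malat1 and Neat1 are long noncoding RNAs that stay in the nucleus. Malat1 gathers in nuclear speckles, which store splicing factors, and Neat1 is the scaffold of the paraspeckle. Most messenger RNA is exported to the cytoplasm, where messages for ribosomal proteins are among the most abundant in lymphocytes, while the transcripts of the mitochondrial genome remain inside mitochondria. Innate lymphoid cells (ILCs) are lymphocytes without a rearranged antigen receptor that reside in tissues such as skin.

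The skin came from mice labelled C57/BL6, with 1 library from postnatal day 14 and 1 from postnatal day 1. Collagenase digestion was followed by a sort for CD45+, Lin-, Thy1.2+ cells and by droplet capture on a 5' kit of 10x Genomics, per the labels. Neither the genotype beyond this strain nor the number of animals is given in the labels. The suffix in the cell names matches no age, so no cell was assigned to a day and the ages were not compared. There was therefore no replicate of any group, no test was run, and every interval is a 95% interval of counting error only. Set 2 held 3775 cells and set 1 held 1471. No cell of the table had fewer than 500 UMIs or 211 genes, and the highest mitochondrial share was 25%. Of the cell barcodes, 4 occurred in both sets, none of them on a Malat1-rich cell.

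Depth, Malat1 and the mitochondrial share chose the cells, so their values are given as a description. UMIs per cell were 507 at the lowest, 1149 at the median and 1976 at the highest in the Malat1-rich cells, against 2000, 5002 and 25826 in the deep cells. Malat1 took 5.12, 11.8 and 22.9% of the UMIs (lowest, median, highest) in the Malat1-rich cells, against 0, 2.12 and 16.1% in the deep cells. Cells were found on either side of each limit. Of cells that met the rest of the rule, the nearest inside had 5.12% Malat1 and the nearest outside 4.93%, the nearest inside 1976 UMIs and the nearest outside 2016, and the nearest inside 9.94% mitochondrial UMIs and the nearest outside 10.1%. Malat1 shares this high were rare among deeper cells, of which 120 of 3259 (3.68%, 3.06 to 4.39%) reached 5% and 2 reached the median of the Malat1-rich cells. Of all 249 cells under 2000 UMIs and within the mitochondrial limit, 103 (41.4%, 35.2 to 47.8%) reached 5%. The other 146 fall below it by definition and had a median of 1024 UMIs.

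**Figure D1:**
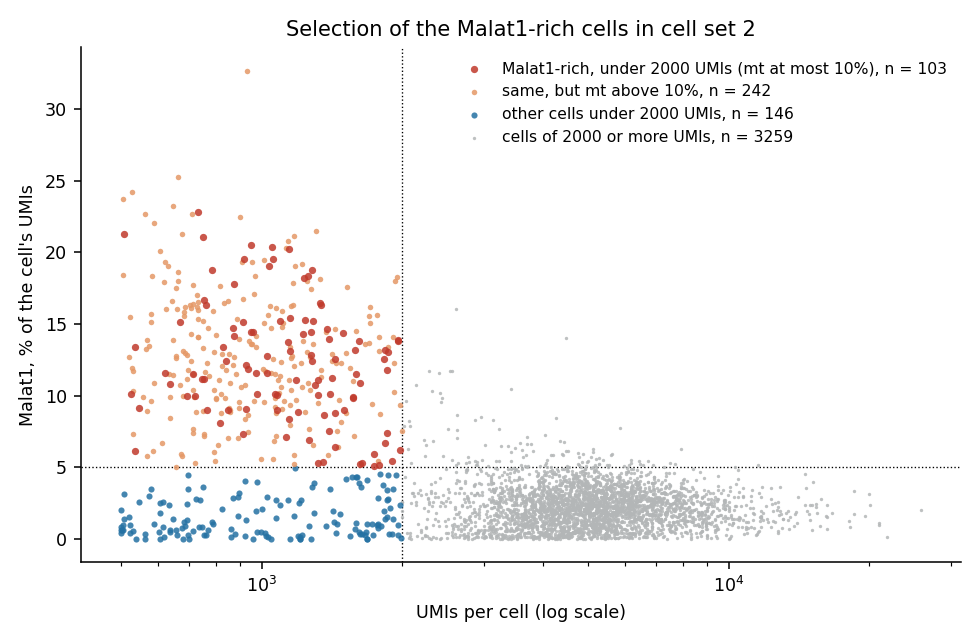
Each point is 1 cell of set 2, with its UMIs on a log axis and Malat1 as a percentage of those UMIs. Dotted lines mark 2000 UMIs and 5% Malat1. The 103 Malat1-rich cells (red) share the upper left field with 242 cells that differ from them by a mitochondrial share above 10% (orange), while the 146 other shallow cells (blue) and most of the 3259 deep cells (grey) lie below 5%.

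Besides Malat1, 2 genes that the rule did not use were taken as markers of these cells. Neat1 stood at 1890 CPM in the Malat1-rich cells, against 475 CPM in the other shallow cells and 393 CPM in the deep cells, where CPM (counts scaled to a common total) is taken over UMIs without Malat1. The ratio to the deep cells was 4.80 (4.16 to 5.52). Nabp1, which encodes a single-stranded DNA-binding protein of the DNA damage response, stood at 1223 CPM in the Malat1-rich cells, against 271 CPM in the other shallow cells and 307 CPM in the deep cells, a ratio of 3.98 (3.33 to 4.73) to the deep cells. Both genes were known to mark these cells from an earlier view of the same table, so they are no independent check of the group. Malat1 lies at chr19:5795690-5802672 and Neat1 at chr19:5824708-5845478, both long noncoding genes on the minus strand. Nabp1 is a protein-coding gene at chr1:51465862-51478425 on the minus strand (mm10).

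Ribosomal protein messages, which had no part in the choice, were scarce in most of these cells. The 92 cytosolic ribosomal protein genes took 1.53% of the UMIs of the median Malat1-rich cell, against 29.6% in the other shallow cells and 30.2% in the deep cells. A share under 5% was found in 79 of 103 Malat1-rich cells (76.7%, 67.3 to 84.5%), in 6 of 146 other shallow cells (4.11%, 1.52 to 8.73%) and in 17 of 3259 deep cells (0.522%, 0.304 to 0.834%). The groups overlapped, since 13 Malat1-rich cells had 10% or more and the highest reached 36.2%. Mitochondrial transcripts took 7.94% at the median of the Malat1-rich cells, against 3.26% in the other shallow cells and 2.63% in the deep cells, though the limit of 10% bounds this share. A share above 8% was held by 49 of 103 Malat1-rich cells, by 7 of 146 other shallow cells and by 13 of 3259 deep cells.

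**Figure D2:**
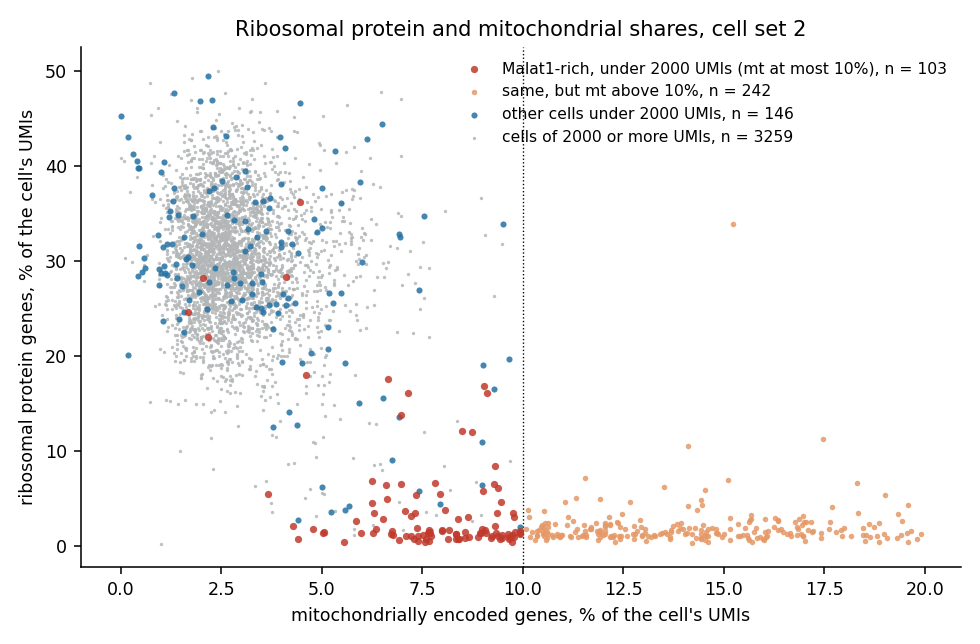
Each point is 1 cell of set 2, with mitochondrially encoded genes on the horizontal and ribosomal protein genes on the vertical axis, both as a percentage of the cell's UMIs, and the dotted line at the limit of 10%. Most Malat1-rich cells (red) lie in a band of low ribosomal protein share that runs on past the limit into the 242 orange cells, and 13 red cells lie at 10% or more on the vertical axis.

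The mitochondrial limit ran through this band. In set 2, 242 cells met the rest of the rule but exceeded 10% mitochondrial UMIs, which is 90.6% (86.5 to 93.8%) of the 267 cells over the limit. Their median mitochondrial share was 14.1%, with a range of 10.1 to 19.9%. Their other medians lay near those of the Malat1-rich cells, at 12.5% Malat1, 1.44% ribosomal protein UMIs and 901 UMIs, and 232 of 242 had a ribosomal protein share under 5%. Malat1-rich cells and these cells together numbered 345, and the 103 cells are those with the lower mitochondrial shares.

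Counted as molecules per cell, which needs no denominator, the classes of RNA differed very unequally. A Malat1-rich cell held a mean of 140 Malat1 UMIs, against 18.7 in the other shallow cells and 119 in the deep cells. Neat1 averaged 1.98 UMIs in the Malat1-rich cells, against 0.527 in the other shallow cells and 2.09 in the deep cells. Xist, the noncoding RNA that coats the inactive X chromosome, averaged 2.32 UMIs in the Malat1-rich cells, against 0.438 in the other shallow cells and 2.43 in the deep cells. These 3 nuclear RNAs thus stood at 117, 94.6 and 95.6% of the deep cells' mean number per cell, while all UMIs together stood at 21.8%. Malat1 and the total of UMIs were part of the rule, and Neat1 and Xist were not. Still, Neat1 was known as a marker from an earlier view of the same table. Xist is among the 15 genes named for the largest ratios in these data. Neither is therefore an independent check, and both values are a description.

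Ribosomal protein messages lay at the other end, with a mean of 58.8 UMIs per Malat1-rich cell, against 322 in the other shallow cells and 1621 in the deep cells, or 3.62% of the deep cells' number. Few cells carried that mean. The median Malat1-rich cell had 17 such UMIs, the 79 cells under 5% averaged 17.8 UMIs, which is 1.10% of the deep cells' mean, and the 13 cells at 10% or more averaged 293 UMIs. Messages of cytoskeletal genes reached 4.44% of the deep cells' number, those of nuclear-encoded oxidative phosphorylation genes 5.11% and those of translation factors 7.16%. Splicing factors kept 56.0% and chromatin regulators 53.6%. Mitochondrial transcripts averaged 89.9 UMIs in the Malat1-rich cells, against 42.5 in the other shallow cells and 147 in the deep cells. Genes that are neither Malat1, ribosomal nor mitochondrial averaged 900 UMIs in the Malat1-rich cells, against 746 in the other shallow cells and 3555 in the deep cells. The other shallow cells held 20.7% of the deep cells' UMIs in all, with the classes between 15.7% for Malat1 and 28.9% for mitochondrial transcripts.

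**Figure D3:**
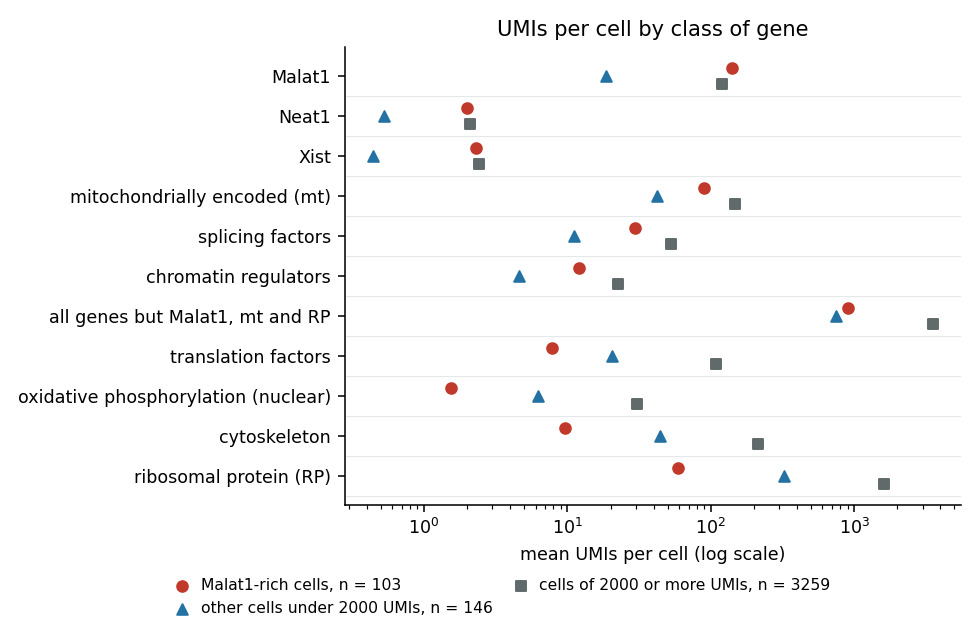
Mean UMIs per cell on a log axis for classes of genes, in 103 Malat1-rich cells (red circles), 146 other shallow cells (blue triangles) and 3259 deep cells (grey squares); single means with no error bars. The red circles meet the grey squares for Malat1, Neat1 and Xist and fall below the blue triangles for ribosomal protein, cytoskeletal, oxidative phosphorylation and translation factor genes.

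Gene by gene, the 1676 genes with a mean of at least 100 CPM over both groups had a median of 33.7% of the deep cells' UMIs per cell in the Malat1-rich cells, with quartiles of 12.1 and 62.1%. In the other shallow cells the median was 20.4%. In the Malat1-rich cells 75 of these genes reached or exceeded the deep cells' mean UMIs per cell, against 1 gene in the other shallow cells. At the low end, 355 genes stood under 10% in the Malat1-rich cells, of which 273 were not ribosomal protein genes. These figures depend on the filter, which also admits genes through the group where they are high. Over the 1324 genes with at least 100 CPM in the deep cells alone, the median was 16.8% in the Malat1-rich cells and 20% in the other shallow cells, and 23 genes reached the deep cells' mean in the Malat1-rich cells.

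As shares of UMIs without Malat1, 621 of these 1676 genes were at least 2-fold higher in the Malat1-rich cells than in the deep cells (37.1%) and 295 at least 2-fold lower (17.6%). Folds for such calls are ratios of CPM + 50, which understates the change of low genes. The median gene had a log2 ratio of 0.60. A gene below 100 CPM in the deep cells passed this filter only if it was high in the Malat1-rich cells. With the filter on the deep cells alone, 277 of 1324 genes were at least 2-fold higher (20.9%) and 358 at least 2-fold lower (27%), and the median was -0.18. Counts under both filters are therefore given for the lists that lead the results. Scaling by TMM factors, which assume that most genes do not differ, set the median gene at -0.34 and gave 102 higher and 562 lower genes. With ribosomal protein and mitochondrial genes also left out of the denominator, 486 were higher and 381 lower, and the median was 0.33. The direction of a gene whose log2 ratio lies between 0 and about 1 thus depends on the scale. With no mitochondrial limit on the chosen cells, 604 genes were higher and 335 lower.

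A like contrast appeared between cells of like depth under the filter on the mean of both groups. That filter again admits genes through the Malat1-rich cells, which favours higher genes and a higher median. Counts filtered on the other shallow cells alone were not made. Against the other shallow cells, 575 of 1648 genes were at least 2-fold higher (34.9%) and 274 at least 2-fold lower (16.6%) in the Malat1-rich cells, with a median log2 ratio of 0.61. Of the genes called against the deep cells, 516 were also higher and 257 also lower here, though both comparisons share the Malat1-rich cells. The other shallow cells, set against the deep cells in turn, had 3 of 1315 genes at least 2-fold higher and 1 at least 2-fold lower, with a median of -0.02.

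Nuclear noncoding RNAs were the list with the largest ratios. The table held 17 of them, of which 4 passed the filter on low values. Xist and Neat1 had over 100 CPM in both groups and were at least 2-fold higher in the Malat1-rich cells, with log2 ratios of 2.16 and 2.13 (1.26 and 1.24 with TMM). Kcnq1ot1 and Tug1 passed only through the Malat1-rich cells, so their direction was set by the filter. Xist stood at 2214 CPM in the Malat1-rich cells and 456 CPM in the deep cells, a ratio of 4.85 (4.25 to 5.52). Kcnq1ot1, which silences an imprinted domain, had 333 CPM in the Malat1-rich cells and 55.4 CPM in the deep cells, but 27.8% of its 36 UMIs came from 1 cell. Tug1, a noncoding RNA found in nucleus and cytoplasm, had 167 CPM in the Malat1-rich cells and 37.6 CPM in the deep cells. Xist and Kcnq1ot1 each overlap genes on the opposite strand (Tsix and Kcnq1 among them), and the strand used in counting is not given in the sources used here. Of the 13 long noncoding genes of the annotation with at least 100 CPM in the deep cells, 9 were at least 2-fold higher and 1 at least 2-fold lower. Of all genes with at least 100 CPM in the deep cells 20.9% were higher and 27% lower. The 9 higher genes include unnamed models such as Gm26917 and Gm42418. These had 1797 and 22147 CPM in the Malat1-rich cells, against 388 and 10610 CPM in the deep cells. The count is thus not one of known nuclear RNAs.

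Messages for the splicing machinery had more members at least 2-fold higher than any other list. Of 30 splicing and nuclear RNA-binding factors 29 passed the filter, 20 were at least 2-fold higher and 0 at least 2-fold lower, with a median of 1.48 (0.69 with TMM). With the filter on the deep cells alone, 17 of 26 were at least 2-fold higher (65.4%, against 20.9% of all genes). Tra2a, an SR-like splicing activator, stood at 1436 CPM in the Malat1-rich cells and 289 CPM in the deep cells, a ratio of 4.96 (4.20 to 5.82). Luc7l2, a partner of the U1 small nuclear ribonucleoprotein, had 1528 CPM in the Malat1-rich cells and 327 CPM in the deep cells. Srrm2, a core protein of nuclear speckles, had 1899 CPM in the Malat1-rich cells and 447 CPM in the deep cells. Within the list, 3 genes of the hnRNP family went the other way in value, with log2 ratios of -0.79 for Hnrnpa1, -0.65 for Hnrnpc and -0.53 for Hnrnpk.

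Chromatin regulators had a like pattern, with 18 of 25 members that passed the filter at least 2-fold higher, 0 at least 2-fold lower and a median of 1.31 (0.57 with TMM). The list held 30 genes. With the filter on the deep cells alone, 9 of 15 were at least 2-fold higher (60.0%, against 20.9% of all genes). Chd2, a chromatin remodeller, stood at 1352 CPM in the Malat1-rich cells and 295 CPM in the deep cells, a ratio of 4.59 (3.87 to 5.41). The histone methyltransferase genes Ash1l and Kmt2a had 371 and 491 CPM in the Malat1-rich cells, against 77.8 and 118 CPM in the deep cells. Tet2, whose product oxidises methylated cytosine, had 278 CPM in the Malat1-rich cells and 65.8 CPM in the deep cells. Ash1l and Tet2 passed the filter only through the Malat1-rich cells. Per cell these genes did not exceed the deep cells, with Chd2 at a mean of 1.42 UMIs in the Malat1-rich cells and 1.57 UMIs in the deep cells.

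All 12 mitochondrially encoded genes that passed the filter were at least 2-fold higher in share, with log2 ratios of 1.10 to 1.73 and a median of 1.54 (0.61 with TMM). Under either filter 12 of 12 were higher, beside 37.1% of all genes, or 20.9% with the filter on the deep cells alone. Because the mitochondrial share took part in the rule, this is a description. mt-Atp6, a subunit of ATP synthase, stood at 20127 CPM in the Malat1-rich cells and 6017 CPM in the deep cells. mt-Co3 and mt-Co2, subunits of cytochrome c oxidase, stood at 14653 and 11912 CPM in the Malat1-rich cells, against 4632 and 3770 CPM in the deep cells. The nuclear-encoded partners of the same complexes went the opposite way. Of 18 nuclear oxidative phosphorylation genes 11 passed the filter, and all 11 were at least 2-fold lower, beside 17.6% of all genes. Their median was -1.59 (-2.20 with TMM). Filtered on the deep cells alone, 13 of 13 were lower, beside 27% of all genes. Cox4i1, a nuclear subunit of cytochrome c oxidase, had 120 CPM in the Malat1-rich cells and 816 CPM in the deep cells, 6.77-fold lower. Atp5e, a nuclear subunit of ATP synthase, had 139 CPM in the Malat1-rich cells and 746 CPM in the deep cells. The summed level of the list was 1482 CPM in the Malat1-rich cells, against 5656 CPM in the other shallow cells and 5712 CPM in the deep cells.

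Ribosomal protein genes were lower throughout. Of the 92 genes 82 passed the filter and all 82 were at least 2-fold lower in the Malat1-rich cells, beside 17.6% of all genes. Their median log2 ratio was -2.34 (-3.26 with TMM). Filtered on the deep cells alone, 83 of 83 were lower, beside 27% of all genes. Their sum was 56066 CPM in the Malat1-rich cells, against 290221 CPM in the other shallow cells and 304555 CPM in the deep cells, a ratio of 0.184 (0.179 to 0.189) to the deep cells. The 13 cells at 10% or more held 212130 CPM and the 79 cells under 5% held 18130 CPM, a ratio of 0.0595 to the deep cells. Rps4x stood at 537 CPM in the Malat1-rich cells and 4114 CPM in the deep cells, and Rpl39 at 815 CPM in the Malat1-rich cells and 5852 CPM in the deep cells. Reads of these genes can be shared with their many processed pseudogenes, so single members are less certain than the sum.

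Translation factors followed, with 12 of 19 members that passed the filter at least 2-fold lower, 1 at least 2-fold higher and a median of -1.59 (-2.26 with TMM). Of all genes 17.6% were lower. Filtered on the deep cells alone, 12 of 20 were lower (60%, beside 27% of all genes). Eef1a1, the elongation factor that delivers aminoacyl-tRNA, stood at 1677 CPM in the Malat1-rich cells and 7597 CPM in the deep cells. Eif3f and Eif3h, subunits of initiation factor 3, had 83.4 and 92.6 CPM in the Malat1-rich cells, against 715 and 654 CPM in the deep cells. Naca and Btf3, which form the complex that binds nascent chains, had 259 and 120 CPM in the Malat1-rich cells, against 1404 and 826 CPM in the deep cells. The list was not uniform. The cap-binding factor Eif4e had 509 CPM in the Malat1-rich cells and 229 CPM in the deep cells, and Eif5 had 556 CPM in the Malat1-rich cells and 310 CPM in the deep cells.

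Cytoskeletal genes had the lowest median after ribosomal proteins, at -1.83 (-2.69 with TMM). Of 15 members that passed the filter 13 were at least 2-fold lower, beside 17.6% of all genes. Filtered on the deep cells alone, 14 of 16 were lower (87.5%, beside 27% of all genes). Tmsb4x, whose product holds actin monomers, stood at 2844 CPM in the Malat1-rich cells, against 15742 CPM in the other shallow cells and 16259 CPM in the deep cells, 5.72-fold lower than in the deep cells. The related Tmsb10 had 1019 CPM in the Malat1-rich cells and 5224 CPM in the deep cells. Pfn1, which encodes profilin, had 241 CPM in the Malat1-rich cells and 1251 CPM in the deep cells, and the tubulin gene Tubb5 had 55.6 CPM in the Malat1-rich cells and 430 CPM in the deep cells. Lcp1, an actin-bundling protein of leukocytes, was the member nearest to no difference, with a log2 ratio of -0.09.

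Proteasome and glycolysis genes were less uniform. Of 8 proteasome subunits that passed the filter, from a list of 15, 6 were at least 2-fold lower, beside 17.6% of all genes, with a median of -1.19. Filtered on the deep cells alone, 7 of 13 were lower (53.8%, beside 27% of all genes). Psme1, a proteasome activator, had 46.3 CPM in the Malat1-rich cells and 283 CPM in the deep cells. Of 10 glycolysis enzymes that passed, from 14, 4 were at least 2-fold lower and 1 at least 2-fold higher, beside 17.6 and 37.1% of all genes. Their median was -0.75. Filtered on the deep cells alone, 4 of 10 were lower and 1 higher, beside 27 and 20.9% of all genes. Gapdh had 269 CPM in the Malat1-rich cells and 1370 CPM in the deep cells, whereas Hk2, the hexokinase that commits glucose to the pathway, had 296 CPM in the Malat1-rich cells and 118 CPM in the deep cells.

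**Figure D4:**
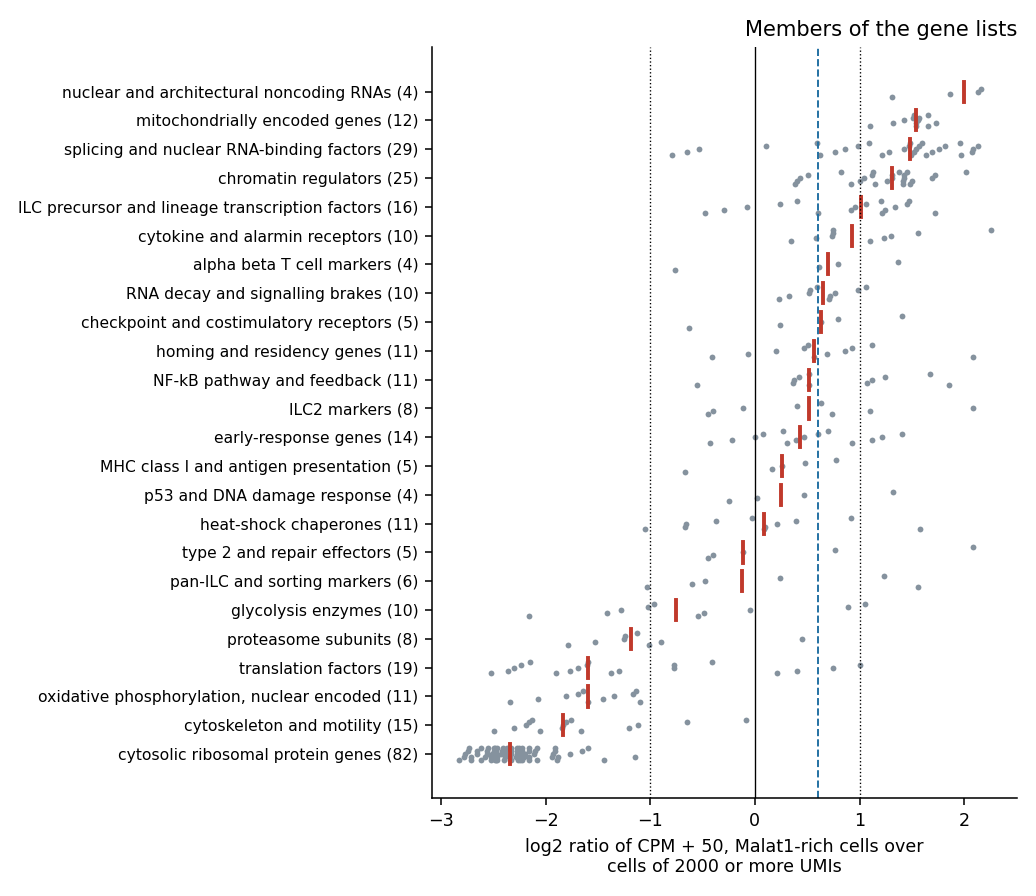
Each grey point is a gene of the list named on the left (number that passed the filter in brackets), placed by its log2 ratio of CPM + 50, Malat1-rich cells over deep cells. Red bars are list medians, the dashed blue line is the median of all 1676 genes at 0.60, and dotted lines mark 2-fold. The medians of nuclear RNAs, mitochondrial genes, splicing and chromatin lie to the right of the blue line, and the genes of oxidative phosphorylation, cytoskeleton and ribosomal proteins lie wholly or mostly left of -1.

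Outside these lists, the named gene with the largest ratio of CPM + 50 was Cenpa, which encodes the histone H3 variant of centromeres (chr5:30666777-30674830, plus strand). It stood at 2594 CPM in the Malat1-rich cells, against 333 CPM in the other shallow cells and 414 CPM in the deep cells, a ratio of 6.27 (5.54 to 7.07) to the deep cells. Of its 280 UMIs 9.29% came from 1 cell. The 12 cycling markers did not share this pattern and summed to 120 CPM in the Malat1-rich cells, against 481 CPM in the other shallow cells and 523 CPM in the deep cells. The log2 ratio of Cenpa was 2.51, and that of Gm26740, an unnamed antisense model singled out after its values were seen, was 2.63.

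Of the 15 genes named for the largest ratios, 14 held more UMIs per cell in the Malat1-rich cells than in the deep cells, the exception being Xist. A ratio of shares this large brings that about by arithmetic, so the count is a description of genes chosen by their ratio. Ogt, the enzyme that adds O-GlcNAc to proteins, averaged 1.02 UMIs in the Malat1-rich cells and 0.739 UMIs in the deep cells, with a log2 ratio of its share of 2.44. Dennd4a, an exchange factor for Rab proteins, averaged 2.79 UMIs in the Malat1-rich cells and 2.48 UMIs in the deep cells. Ccnl1, a cyclin tied to splicing, averaged 2.31 UMIs in the Malat1-rich cells and 2.03 UMIs in the deep cells. The longest annotated transcript of the 15 genes had a median of 5684 bases. Clcn3, an endosomal chloride exchanger, and Itpkb, a kinase of inositol phosphates, had log2 ratios of 2.32 and 2.26. Macf1, a linker of microtubules and actin, and the transcriptional repressors Zeb1 and Zbtb20 had log2 ratios of 2.25, 2.24 and 2.19. Zbtb20 and Parp8, another of the 15, had 72.6 and 89.2 CPM in the deep cells. Both passed the filter only through the Malat1-rich cells, so their direction was set by the filter.

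The 15 named genes with the smallest ratios had a median longest transcript of 1079 bases. Chchd2, a mitochondrial intermembrane protein, had 74.1 CPM in the Malat1-rich cells and 687 CPM in the deep cells, a ratio of 0.108 (0.0465 to 0.213). Lgals1, which encodes galectin-1, had 278 CPM in the Malat1-rich cells and 1781 CPM in the deep cells. Tpt1, the translationally controlled tumour protein, had 1714 CPM in the Malat1-rich cells and 8272 CPM in the deep cells. The respiratory chain gene Ndufb5 had 0 UMIs in the Malat1-rich cells, against 209 CPM in the deep cells, so it was at least 7.52-fold lower when 3 UMIs over the group are allowed for. Cox7b had 2 UMIs in the Malat1-rich cells, and its ratio was 0.0573 with an interval of 0.00694 to 0.207. Rack1, a scaffold on the small ribosomal subunit, had 417 CPM in the Malat1-rich cells and 2199 CPM in the deep cells.

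Transcripts of ILC identity were present in these cells. Rora, a transcription factor needed by group 2 ILCs (ILC2s), stood at 3538 CPM in the Malat1-rich cells and 1800 CPM in the deep cells. Gata3, the master regulator of ILC2s, stood at 815 CPM in the Malat1-rich cells and 606 CPM in the deep cells. Id2, which all ILC lineages require, stood at 2260 CPM in the Malat1-rich cells and 1904 CPM in the deep cells. With TMM scaling the log2 ratio of Rora was 0.02, and those of Gata3 and Id2 were -0.49 and -0.69, so the direction of Gata3 and Id2 depends on the scale. Of the 16 ILC precursor and lineage transcription factors that passed the filter, from a list of 21, 8 were at least 2-fold higher and 0 at least 2-fold lower, with a median of 1.01 (0.14 with TMM), beside 37.1% of all genes higher. With the filter on the deep cells alone, 6 of 13 were higher (46.2%), beside 20.9% of all genes. Maf and Bcl11b, factors of T cells and ILC2s, had log2 ratios of 1.72 and 1.47 (0.84 and 0.65 with TMM).

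Genes of the sorting markers behaved unequally. Ptprc, which encodes CD45, stood at 2103 CPM in the Malat1-rich cells, against 623 CPM in the other shallow cells and 679 CPM in the deep cells, a log2 ratio of 1.56 to the deep cells. Thy1, the other positive sorting marker, stood at 222 CPM in the Malat1-rich cells, against 555 CPM in the other shallow cells and 506 CPM in the deep cells, 2.28-fold lower than in the deep cells. Il7r, the receptor chain for the survival cytokine IL-7, had 2084 CPM in the Malat1-rich cells and 862 CPM in the deep cells. Cd3g, a chain of the CD3 complex that some ILCs transcribe, had 343 CPM in the Malat1-rich cells and 546 CPM in the deep cells. Of its 37 UMIs in the Malat1-rich cells, 16 came from the 13 cells with a ribosomal protein share of 10% or more. Of the 6 pan-ILC and sorting markers that passed the filter, 2 were at least 2-fold higher and 1 at least 2-fold lower. These counts are near the shares of all genes, at 37.1% higher and 17.6% lower. The list had a median of -0.12 (-0.92 with TMM). This median had no stable sign, with 0.41 at a Malat1 share of at least 10% and 0.09 against the other shallow cells.

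Of 10 cytokine receptor genes that passed the filter, from 19, 5 were at least 2-fold higher, beside 37.1% of all genes, with a median of 0.92 (0.16 with TMM). Filtered on the deep cells alone, 4 of 9 were higher (44.4%, beside 20.9% of all genes). Il18r1 and Il18rap, the chains of the interleukin-18 receptor, stood at 1112 and 519 CPM in the Malat1-rich cells, against 194 and 144 CPM in the deep cells. Il4ra, the receptor chain shared by IL-4 and IL-13, had 454 CPM in the Malat1-rich cells and 155 CPM in the deep cells. Type 2 effectors had a median of -0.11 over 5 members that passed. Areg, which encodes the repair factor amphiregulin, had 936 CPM in the Malat1-rich cells and 1012 CPM in the deep cells, a ratio of 0.925 (0.753 to 1.12). Il13 and Il5, the cytokines of ILC2s, had 259 and 176 CPM in the Malat1-rich cells, against 372 and 248 CPM in the deep cells, and both intervals of the ratio include 1.

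A few lineage genes rested on a small number of cells. Calca, which encodes the neuropeptide CGRP, had 815 CPM in the Malat1-rich cells and 155 CPM in the deep cells, but its UMIs came from 15 cells and 27.3% of them from 1. Ccr2, a chemokine receptor, had 584 CPM in the Malat1-rich cells and 99.8 CPM in the deep cells, with 17.5% of its UMIs in 1 cell. It passed the filter only through the Malat1-rich cells. Hopx, a homeodomain cofactor, had 176 CPM in the Malat1-rich cells and 526 CPM in the deep cells, with UMIs in 5 cells and 73.7% of them in 1. Il1rl1 and Klrg1, receptors of mature ILC2s, had 2 and 0 UMIs in the Malat1-rich cells, against 20.5 and 6.05 CPM in the deep cells, where they were low as well. Other lineage and regulatory lists had medians of 0.51 for ILC2 markers, 0.56 for homing genes, 0.63 for checkpoint receptors, 0.65 for genes of RNA decay and 0.26 for antigen presentation. All 5 medians were below 0 with TMM.

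Stress and activation genes, which respond to tissue digestion as well as to signals in the tissue, did not differ as 1 group. Of 14 early-response genes that passed the filter 3 were at least 2-fold higher, beside 37.1% of all genes. Their median was 0.43 (-0.40 with TMM), beside 0.60 for all genes. Under the filter on the deep cells alone 3 of 14 were higher (21.4%, beside 20.9% of all genes). The median was then 0.43, beside -0.18 for all genes, so the order of these medians depends on the filter. The AP-1 genes Fosb and Jun had 1649 and 491 CPM in the Malat1-rich cells, against 594 and 183 CPM in the deep cells, while Junb had 2510 CPM in the Malat1-rich cells and 2922 CPM in the deep cells. In the Malat1-rich cells 16.9% of the Fosb UMIs and 20.8% of the Jun UMIs came from 1 cell. Heat-shock chaperones had a median of 0.09 (-0.72 with TMM). Of 11 that passed, 1 was at least 2-fold higher and 1 at least 2-fold lower, beside 37.1 and 17.6% of all genes. Both counts were the same with the filter on the deep cells alone, beside 20.9 and 27% of all genes. Hspa8, the constitutive chaperone, had 1074 CPM in the Malat1-rich cells and 2270 CPM in the deep cells. The near-identical genes Hspa1a and Hspa1b, whose reads can be shared, had 936 and 2195 CPM in the Malat1-rich cells, against 875 and 1135 CPM in the deep cells.

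NF-kB genes had a median of 0.52 (-0.23 with TMM), beside 0.60 for all genes, and 5 of 11 that passed were at least 2-fold higher, beside 37.1% of all genes. Under the filter on the deep cells alone 5 of 10 were higher (50%, beside 20.9% of all genes). The median was then 0.80, beside -0.18 for all genes. Nfkb1, a subunit of NF-kB, stood at 2066 CPM in the Malat1-rich cells and 613 CPM in the deep cells, and the apoptosis inhibitor Birc2 at 574 CPM in the Malat1-rich cells and 123 CPM in the deep cells. Nfkbia, the inhibitor that NF-kB induces, had 1315 CPM in the Malat1-rich cells and 1943 CPM in the deep cells. Few cell death genes passed the filter. Among them the pro-apoptotic Bcl2l11 had 482 CPM in the Malat1-rich cells and 180 CPM in the deep cells, and Mcl1, a survival factor, had 315 CPM in the Malat1-rich cells and 220 CPM in the deep cells. Bcl2a1b, another survival factor and the third gene that passed, had 102 CPM in the Malat1-rich cells and 185 CPM in the deep cells. Of 4 genes of the p53 and DNA damage response that passed, Trp53inp1 was at least 2-fold higher, with 324 CPM in the Malat1-rich cells and 99.7 CPM in the deep cells. It passed only through the Malat1-rich cells, so its direction was set by the filter. Of the 3 genes that passed on the deep cells alone, 0 were at least 2-fold higher. Gadd45b had 1436 CPM in the Malat1-rich cells and 1717 CPM in the deep cells.

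Markers of other cell types were few. The 13 macrophage and dendritic cell markers were all at 0 UMIs in the Malat1-rich cells, against 92.5 CPM in the other shallow cells and 11.4 CPM in the deep cells, and the interval of the ratio to the deep cells reaches 3.04. B cell markers had 1 UMI (3 of 4 at 0) and markers of endothelial, mural and Schwann cells 2 UMIs (9 of 11 at 0) in the Malat1-rich cells, or 9.26 and 18.5 CPM, against 11.6 and 12.1 CPM in the deep cells. Fibroblast markers had 3 UMIs (5 of 8 at 0), or 27.8 CPM, in the Malat1-rich cells and 5.48 CPM in the deep cells, a ratio of 5.07 (1.03 to 15.3). Of the mast cell and granulocyte markers 7 of 8 were at 0, and the exception was Kit, which ILCs can also express, with 278 CPM in the Malat1-rich cells and 163 CPM in the deep cells. Keratinocyte markers summed to 148 CPM in the Malat1-rich cells and 297 CPM in the deep cells, with Krt5, Krt1 and Krt15 at 0. Erythroid and platelet markers summed to 130 CPM in the Malat1-rich cells and 218 CPM in the deep cells, all of it haemoglobin in the Malat1-rich cells. The 9 gamma delta T cell markers in the table summed to 889 CPM in the Malat1-rich cells, against 426 CPM in the other shallow cells and 327 CPM in the deep cells, of which Trdv4, a receptor gene segment, made up 676 CPM in the Malat1-rich cells and 178 CPM in the deep cells. Alpha beta T cell markers summed to 1417 CPM in the Malat1-rich cells and 1080 CPM in the deep cells, with Cd3e at 0 UMIs and Trac at 1 UMI in the Malat1-rich cells. Among the gamma delta markers Tcrg-C1, Tcrg-C2, Trgv2, Sox13 and Blk were at 0. NK and ILC1 markers summed to 667 CPM in the Malat1-rich cells, against 247 CPM in the other shallow cells and 389 CPM in the deep cells, with 7 of 11 at 0, Eomes and Tbx21 among them. Of that sum Klrk1, an activating receptor, made up 435 CPM in the Malat1-rich cells and 174 CPM in the deep cells. ILC3 markers summed to 630 CPM in the Malat1-rich cells and 525 CPM in the deep cells, with Ccr6 at 333 CPM in the Malat1-rich cells and 127 CPM in the deep cells and 5 of 12 at 0, Il17a and Il22 among them. The part of such transcripts in the other differences was not tested.

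Long genes with long transcripts had the higher shares. Of the 1662 genes placed in the annotation, 1568 were neither ribosomal protein nor mitochondrial genes. Among these the 602 that were at least 2-fold higher in the Malat1-rich cells spanned a median of 58157 bases, and the 209 that were at least 2-fold lower spanned 8020 bases. The longest annotated transcript had a median of 5369 bases among the higher genes, 1367 bases among the lower genes and 2996 bases among genes that were neither. Of 221 genes spanning 100000 bases or more, 71.0% were at least 2-fold higher and 0.452% at least 2-fold lower, whereas of 192 genes under 5000 bases 8.85% were higher and 36.5% lower. Part of the long genes passed only through the Malat1-rich cells. With the filter on the deep cells alone, 63.3% of 98 genes of 100000 bases or more were higher and 2.04% lower, and 5.38% of 223 genes under 5000 bases were higher and 41.7% lower.

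Across these genes the log2 ratio had a Spearman correlation of 0.54 with span and 0.63 with transcript length (0.51 and 0.67 over 1218 genes with the filter on the deep cells alone). The values over the other shallow cells were 0.55 and 0.63 (1540 genes), and those for the other shallow cells over the deep cells were -0.04 and 0.02 (1210 genes). These are descriptions across genes, which are not independent replicates, and the first pair shares the Malat1-rich cells. Which of length, abundance and function goes with the difference was not tested.

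**Figure D5:**
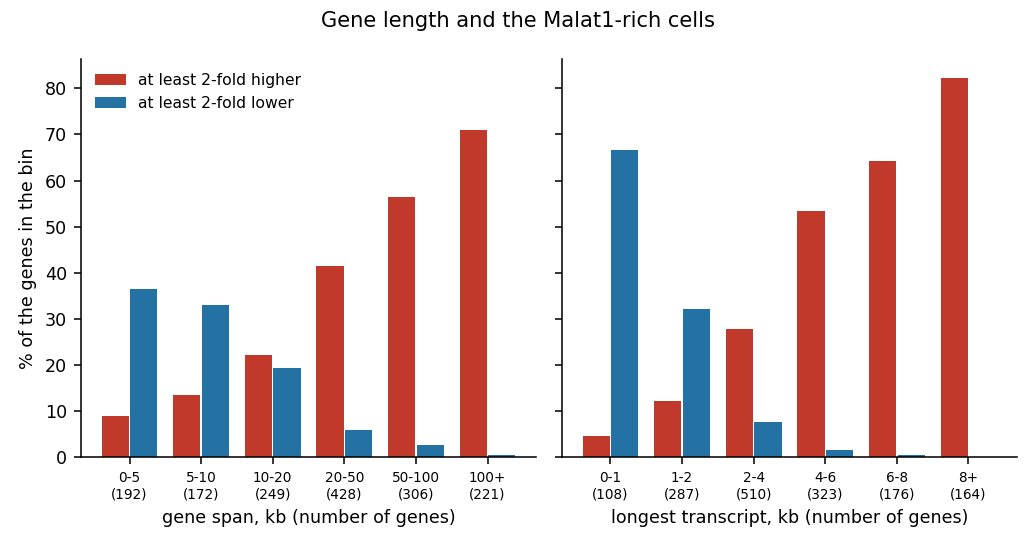
Bars give the percentage of genes in each bin of gene span (left panel) and longest transcript (right panel), both in kb, that were at least 2-fold higher (red) or lower (blue) in the Malat1-rich cells than in the deep cells, with the number of genes in brackets. The red bars grow from 8.85 to 71.0% with span and from 4.63 to 82.3% with transcript length.

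The Malat1-rich cells varied among themselves along the same lines. Across the 103 cells the Malat1 share had a Spearman correlation of -0.57 with the ribosomal protein share and 0.27 with the mitochondrial share, as a description of shares that draw on the same total. The 31 cells with 5 to 10% Malat1 had a median ribosomal protein share of 6.55%, against 1.27% in the 66 cells with 10 to 20% Malat1. Neat1 stood at 685 CPM in the cells with 5 to 10% Malat1 and at 2608 CPM in those with 10 to 20%, and Cenpa at 948 and 3473 CPM in the same order. Tmsb4x ran the other way, at 6322 CPM in the cells with 5 to 10% Malat1 and 925 CPM in those with 10 to 20%. In the 6 cells with 20% or more, Neat1 and Tmsb4x each had 6 UMIs, or 1477 CPM, so neither order went on. The median ribosomal protein share was 1.48% in 37 cells under 1000 UMIs and 1.55% in 66 cells of 1000 or more, but the summed level was 36551 CPM in the cells under 1000 UMIs and 61991 CPM in those of 1000 or more. The 13 cells with 10% or more had a median of 1625 UMIs.

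A minority of the cells had a composition nearer to that of the deep cells. The 13 cells with a ribosomal protein share of 10% or more had a median of 17.6% ribosomal protein UMIs and 6.17% Malat1, just above the threshold. They held 446 CPM of Neat1, 557 CPM of Cenpa and 9857 CPM of Tmsb4x, against 2393, 3397 and 1132 CPM in the 79 cells under 5%, and against 393, 414 and 16259 CPM in the deep cells. A group of 11 cells lay between them at 5 to 10%, and 7 cells lay within 1 percentage point of 5%. The rule therefore drew together cells of different composition. With only the 79 cells under 5%, the counts were 747 higher and 342 lower genes, and the median of the ribosomal protein list was -3.75. Some lineage genes were present in both, with Il7r at 2506 CPM in the 13 cells and 2020 CPM in the 79, Gata3 at 1058 and 824 CPM, and Rora at 1615 and 3989 CPM in the same order. Cd3g and Thy1 were lower in the 79 cells. Cd3g stood at 891 CPM in the 13 cells and 142 CPM (11 UMIs) in the 79, and Thy1 at 446 and 167 CPM (13 UMIs). The deep cells had 546 and 506 CPM.

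At equal depth the Malat1-rich cells held slightly more different genes. After each cell was thinned to 300 UMIs without Malat1, which left out none, the median number of genes was 232 in the Malat1-rich cells, against 218 in the other shallow cells and 222 in the deep cells. The quartiles were 225 and 240.5 genes in the Malat1-rich cells and 212 and 231 genes in the deep cells, so the groups overlapped. Unthinned, the medians were 613 genes in the Malat1-rich cells, against 526.5 in the other shallow cells and 1585 in the deep cells.

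In set 1 the same rule found 3 of 1441 cells (0.208%, 0.0430 to 0.607%). The ceiling of 2000 UMIs was not like for like, because set 1 was deeper. Of its 1441 cells 1426 had 2000 or more UMIs, with a median of 10727.5, against 5002 in the deep cells of set 2. At any depth and mitochondrial share, 15 cells of set 1 and 345 of set 2 had a ribosomal protein share under 5%. The 2 shares chosen by the rule are therefore not compared. The ribosomal protein shares of the 3 cells were 5.06, 15.4 and 26.6%, all above the 5% under which most Malat1-rich cells of set 2 lay. Of 30 cells of set 1 over the mitochondrial limit, 9 met the rest of the rule, against 242 of 267 in set 2. The 3 cells held 3569 UMIs without Malat1 between them, in which Neat1 had 2 UMIs and Xist 12, and no further value is read from so few. Whether a set stands for an age, an animal or a preparation cannot be told from the labels.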

How the data were processed

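The authors deposited 1 table of UMI counts, whole numbers per gene symbol and cell, which are unscaled. The tools named are Cell Ranger 3.1.0 and Seurat 4.1.0, and the build is mm10, per the submitters' processing notes. No settings are stated there. The table pools both libraries and was treated as 1 sample. Cells were chosen by their suffix, UMIs, Malat1 share and mitochondrial share, and no doublet caller was run.

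UMIs were summed over the cells of a group (107962 without Malat1 in the Malat1-rich cells, 17349920 in the deep cells) and given as CPM of UMIs without Malat1. A gene was called at a 2-fold ratio of CPM + 50 if its mean CPM over both groups was at least 100, which is 10.8 UMIs in the Malat1-rich cells. Intervals of ratios are exact binomial and those of shares are Clopper-Pearson. With 1 library per age, cells are not replicates and no p-value was computed. The fold and interval code was tested on simulated data. TMM factors (edgeR 4.0.16, R 4.3.3) were 1.39 for the Malat1-rich cells and 0.719 for the deep cells. Lengths and places came from GENCODE M21, in which 18528 of 18786 symbols were matched, and of the 147 genes tabulated 61 overlap a gene on the opposite strand. Scripts ran in Python 3.11.15 with numpy 2.4.6, scipy 1.17.1 and pandas 2.3.3.

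The text names the 15 largest and 15 smallest ratios (ribosomal protein, mitochondrial, haemoglobin, antigen receptor and unnamed genes apart), Malat1, Neat1, Nabp1 and up to 4 members per list by size of ratio, though not every one, and other genes chosen after their values were seen. The cells, the rule and the 36 lists were chosen with earlier results of these data known.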

Additional observations from a re-analysis of the deposited data

How the results depend on the processing

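The number of cells depended on each threshold, with 72 and 128 cells at Malat1 shares of 10% and 3%, 81 and 37 cells under 1500 and 1000 UMIs, 10 cells at a mitochondrial limit of 5%, and, chosen after seeing the data, 345 cells with no mitochondrial limit and 79 with a ribosomal protein share under 5%. Genes at least 2-fold higher and lower numbered 102 and 562 with TMM scaling and 322 and 194 with a mean CPM of at least 200, where fewer genes were tested, and 134 genes were lower with the 10 cells at the 5% limit. With the filter on the deep cells alone, also chosen after seeing the data, 277 were higher and 358 lower, and the median gene moved to -0.18. Of the lists' medians, that of pan-ILC and sorting markers turned positive under 5 settings, and that of heat-shock chaperones turned negative under 11. The median of cell death genes changed sign under 5 settings, and those of ILC3 markers and checkpoint receptors under 4 each. Those of p53, alpha beta T cell and antigen presentation genes did so under 3 each, and further lists under 1 or 2. The excess in genes per cell at equal depth over the deep cells was 10 at 300 UMIs and 29 at 500. Of the tabulated genes at least 2-fold higher or lower as reported, 8 had log2 ratios that changed sign, all at the 5% limit, which leaves 10 cells. They were Jun (-0.78), Nfkb1 (-0.056), Trp53inp1 (-0.15), Calca (-2.05), Ccr6 (-0.38), Klrk1 (-0.039), Runx1 (-0.34) and Cd27 (-0.18). Sign changes of genes under 2-fold are not counted here, such as those of Gata3 and Id2 with TMM scaling. Over 17 settings, 1435 of 1562 gene values that had been at least 2-fold stayed so in the same direction, and 178 of 201 list medians did. No paired analysis was possible because both libraries are pooled in 1 table and no result came from a test. With 103 cells and 107962 UMIs, genes under 27.8 CPM are below 3 UMIs.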
